A study of Mus musculus with 30 samples.

Results

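The genes described are the nuclear genes of respiratory complexes III, IV and V and cytochrome c: every gene of the deposited table whose Ensembl identifier maps to a symbol that starts with Uqcr, Cox or Atp5, together with Cyc1 and Cycs. This rule gave 49 of the 11249 genes in the table, after 4 processed pseudogenes were left out. Of these, 9 encode complex III proteins, 1 is the cytochrome c gene Cycs, 13 encode complex IV subunits, 9 encode complex IV assembly or supercomplex factors, and 17 belong to complex V, of which 5 form its F1 head, 11 its Fo part and stalk, and 1 (Atp5s) is a coupling factor. All 49 passed the filter on low values. RNA was measured in male mice 3 days after surgery, and the surgery was either a sham operation or a transection of the spinal cord at thoracic level T3 or T9. Each surgery gave 4 libraries of gastrocnemius (hind limb calf muscle) and 6 of triceps (forelimb muscle). The sources used here give neither strain nor age. By the mouse numbers in their descriptions, 24 of the 30 libraries are pairs of muscles from 12 mice.

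These complexes are the later part of oxidative phosphorylation in the inner mitochondrial membrane. Complex III takes electrons from ubiquinol and passes them to cytochrome c, which carries them to complex IV, where oxygen is reduced to water. Both complexes pump protons, and complex V (ATP synthase) lets the protons back through the ring of its Fo part and makes ATP in its F1 head. Most subunits are made from nuclear genes in the cytosol and imported, and a few core subunits are made from mitochondrial DNA. In skeletal muscle the content of these proteins differs between fibre types, and some complex IV subunits have a form found mainly in heart and skeletal muscle beside a form found in most tissues.

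Values are given as CPM, the reads of a gene scaled to the same total of reads in every library, and differences are log2 differences between group means with the standard error (SE) of the fit. A member was called where its adjusted p from limma was under 0.05. The groups hold separate mice, so p-values measure the spread between these mice. In whole muscle, fewer fibres that express a gene and less of its RNA per fibre cannot be told apart. Libraries had 13293557 to 23398801 reads in the genes of the table, apart from triceps T3 replicate 5 with 88826845.

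Some libraries stood apart from their group before any comparison. The 49 members together took 2.39%, 1.63%, 1.66% and 3.29% of the reads in gastrocnemius sham replicates 1 to 4. They took 1.38% to 1.57% after T3 and 1.16% to 1.42% after T9. In the triceps they took 1.81% to 4.39% in sham, 1.86% to 3.09% after T3 and 2.08% to 3.57% after T9. Gastrocnemius sham replicates 1 and 4 were thus above every other gastrocnemius library, and the 2 remaining sham libraries lay just above the injured ones. Gastrocnemius libraries also differed in their median log2 value over all genes, which was 3.897 ± 0.18 in sham, 4.17 ± 0.10 after T3 and 4.30 ± 0.02 after T9 (SD, n = 4). Sham replicate 4 had the lowest, 3.66. In the gastrocnemius the total counts of members and most differences of named genes are therefore given with all 12 libraries and again without sham replicates 1 and 4; other values rest on all 12.

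The promoters of members differed in the motifs they hold. RefSeq promoters (GRCm38.p6) were found for 36 of the 49 members, and the 250 bases upstream of each start were searched on both strands for 4 short motifs. The NRF1 motif GCGCATGC was in 13.9% of the 36 and in 2.56% of 27025 symbols with a promoter. The ETS motif CCGGAAG, which GABP can bind, was in 27.8% against 7.83%. The ERR motif AAGGTCA was in 5.56% against 4.7%, and the YY1 motif AAGATGGC in 2.78% against 1.83%. The 150 bases upstream of 5 members are shown because these members carry results below and hold different motifs, with the motif in capitals. They come from chr6:50566570-50566719 for Cycs, chr11:64079473-64079622 for Cox10, chr2:73911327-73911476 for Atp5g3 and chr19:43753001-43753150 for Cox15, all on the minus strand, and from chr9:57521082-57521231 on the plus strand for Cox5a.
Cycs: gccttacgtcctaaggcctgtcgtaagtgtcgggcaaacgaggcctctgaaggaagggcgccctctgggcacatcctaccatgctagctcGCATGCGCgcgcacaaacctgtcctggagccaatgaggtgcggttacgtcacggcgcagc
Cox10: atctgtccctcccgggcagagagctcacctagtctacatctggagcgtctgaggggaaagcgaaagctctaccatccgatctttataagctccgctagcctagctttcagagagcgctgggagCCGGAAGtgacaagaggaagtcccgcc
Atp5g3: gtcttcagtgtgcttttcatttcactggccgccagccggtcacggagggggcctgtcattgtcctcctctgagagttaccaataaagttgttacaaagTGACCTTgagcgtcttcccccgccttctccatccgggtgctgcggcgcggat
Cox5a: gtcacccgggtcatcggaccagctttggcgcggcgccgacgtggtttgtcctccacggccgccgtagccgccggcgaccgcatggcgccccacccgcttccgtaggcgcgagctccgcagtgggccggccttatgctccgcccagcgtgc
Cox15: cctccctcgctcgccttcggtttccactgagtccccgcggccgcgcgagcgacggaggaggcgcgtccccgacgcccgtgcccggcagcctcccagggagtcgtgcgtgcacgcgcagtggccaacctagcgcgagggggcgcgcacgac
The Cycs sequence holds the NRF1 motif on its reverse strand, 60 to 53 bases before the start. The Cox10 sequence holds the ETS motif 27 to 21 bases before the start, and the Atp5g3 sequence the ERR motif on its reverse strand, 52 to 46 bases before the start. None of the 4 motifs was in the windows of Cox5a or Cox15. A match is a description of letters and says nothing of binding in these muscles.

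Injured and sham mice were compared first in the gastrocnemius, whose nerve supply leaves the cord below T9 and T3. After T9, subunits of all 3 complexes were lower, with 34 of 49 members called lower and 3 called higher. After T3, 18 were called lower and 2 higher. The median difference of the members was -0.80 after T9 and -0.61 after T3, while the median over all genes tested was 0.40 and 0.27. Of all genes tested, 5.67% were called lower and 37.6% higher after T9, and 6.65% lower and 27.1% higher after T3. With each library centred on its own median, 40 members were lower and 1 higher after T9, beside 12.4% lower and 11.1% higher of all genes. After T3 the centred counts were 29 lower and 1 higher, beside 14.5% and 14.6%. Without sham replicates 1 and 4, 22 members were lower and 2 higher after T9, beside 6.35% lower and 30.1% higher of all genes, and 11 were lower and 2 higher after T3, beside 7.9% and 22.4%. The member medians were then -0.28 and -0.16. With the library median as a covariate, the member median turned to 0.26 after T9 and 0.11 after T3. Members called lower were then 3 after T9 and 1 after T3, beside 4.83% and 7.89% of all genes, so these shares of 49 were near or below the background. With it 1 member was called higher after each, beside 7.51% and 10.6% of all genes. The count after T3 depended on single libraries: it was 10, 34 and 33 calls without sham replicates 1, 2 or 3, 11, 13, 11 and 11 without T3 replicates 1 to 4, and 13 without T9 replicate 2. After T9, 22 members were called without sham replicate 1, and 25 to 39 without any other single library. The share of genes whose injured libraries all lay below the sham ones was 4.82% after T9 and 5.81% after T3, and this held for 24 and 18 members.

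**Figure D1:**
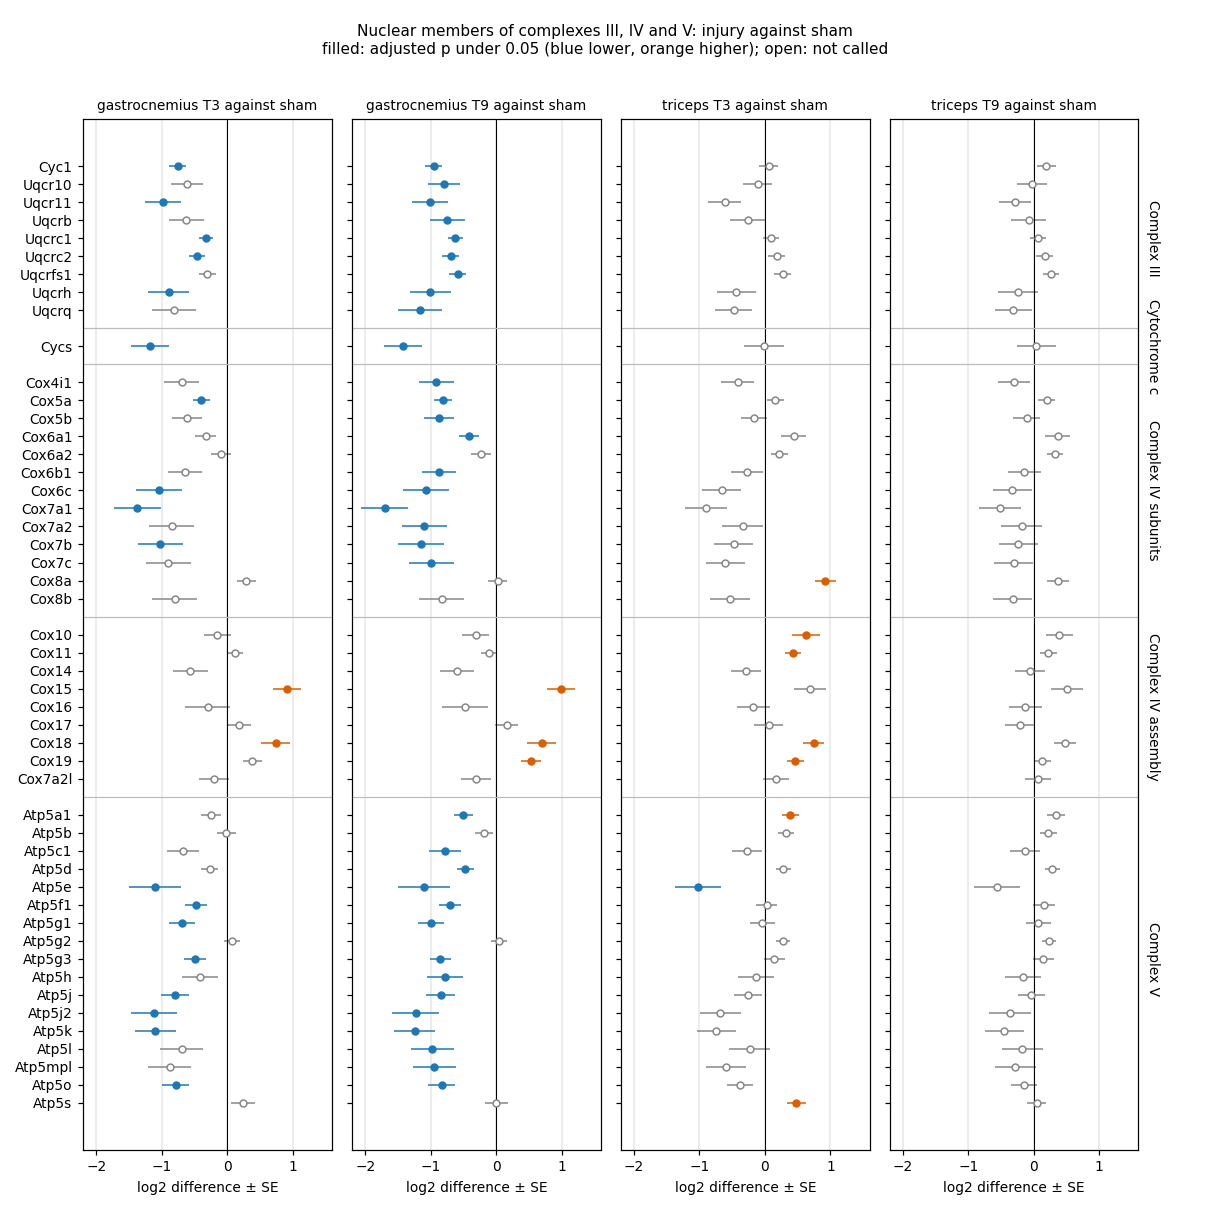
Log2 difference against sham with its SE (horizontal axis) for each of the 49 members (vertical axis, grouped by complex) in 4 comparisons: T3 and T9 in the gastrocnemius and in the triceps. Filled points passed the adjusted p of 0.05; in the gastrocnemius after T9 the 34 lower calls fill all groups but the assembly factors, and in the triceps after T9 no point is filled.

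Complex III was the set in which each member was lower after T9. All 9 were called lower after T9, with a median of -0.80, and 5 of 9 after T3, with a median of -0.63. Without sham replicates 1 and 4 the calls after T9 were 6 of 9: Cyc1, Uqcr11, Uqcrc1, Uqcrc2, Uqcrfs1 and Uqcrq. Cyc1 encodes cytochrome c1, the haem protein that hands electrons to cytochrome c, and lies on chromosome 15 (76343523 to 76346260, GRCm38). Its level was 539, 406, 414 and 451 CPM in the 4 sham libraries, 244, 294, 262 and 266 CPM after T3 and 258, 223, 212 and 239 CPM after T9. Every injured library lay below every sham library. The difference was -0.76 ± 0.13 (SE) after T3 (limma adjusted p = 0.00086) and -0.95 ± 0.13 after T9 (adjusted p = 0.00021), which is 0.592 and 0.517 times the sham level. Cyc1 was called lower in each of 24 fits of both comparisons, with differences no smaller in size than 0.62 after T3 and 0.82 after T9.

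The core and catalytic proteins of complex III moved less than Cyc1 but with little spread. Uqcrc1, core protein 1 on chromosome 9 (108936633 to 108949623), stood at 865, 804, 768 and 742 CPM in sham, 618, 672, 609 and 638 after T3 and 558, 503, 482 and 516 after T9. Its injured and sham libraries did not overlap. The difference was -0.63 ± 0.11 after T9 (limma adjusted p = 0.0013) and -0.32 ± 0.11 after T3 (adjusted p = 0.041), and without sham replicates 1 and 4 the differences were -0.61 and -0.31. The call after T9 was made in all 24 fits and that after T3 in 12. Uqcrc2, core protein 2, went from 397 ± 61.6 CPM in sham to 287 ± 11.7 after T3 and 243 ± 4.63 after T9 (SD, n = 4). Its differences were -0.46 ± 0.12 (adjusted p = 0.013) and -0.70 ± 0.12 (adjusted p = 0.0012), and without sham replicates 1 and 4 they were -0.30 and -0.54. Uqcrfs1, the Rieske iron-sulphur protein that takes electrons from ubiquinol, was 448 ± 42 CPM in sham, 362 ± 31.5 after T3 and 298 ± 28.2 after T9. It was called after T9 (-0.59 ± 0.13, adjusted p = 0.0034, and -0.47 without sham replicates 1 and 4) and not after T3.

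The small accessory subunits of complex III, Uqcr10, Uqcr11, Uqcrb, Uqcrh and Uqcrq, had means further apart and sham libraries that scattered widely. Uqcr11 was at 351, 200, 203 and 602 CPM in sham, 154, 171, 136 and 159 after T3 and 185, 142, 146 and 138 after T9. The injured libraries all lay below the sham ones, and sham replicate 4 was the highest. Its differences were -0.98 ± 0.28 after T3 (limma adjusted p = 0.017) and -1.01 ± 0.28 after T9 (adjusted p = 0.013), and without sham replicates 1 and 4 they were -0.38 and -0.41. Uqcrh, the hinge protein beside cytochrome c1, was called lower after T3 (-0.90 ± 0.31, adjusted p = 0.04) and after T9, with sham values of 488, 209, 223 and 716 CPM that overlapped the injured range. Its call after T3 was made in 11 of 24 fits. Without sham replicates 1 and 4 it was not called.

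Cycs, the somatic cytochrome c and the mobile carrier between complexes III and IV, lies on chromosome 6 (50562563 to 50566538). It was at 611, 267, 318 and 837 CPM in sham, 187, 246, 200 and 181 after T3 and 204, 169, 144 and 167 after T9. All injured libraries were below the lowest sham library, and sham replicates 1 and 4 were well above the other sham libraries. The difference was -1.18 ± 0.29 after T3 (limma adjusted p = 0.008) and -1.43 ± 0.29 after T9 (adjusted p = 0.0026). Without sham replicates 1 and 4 it was -0.53 and -0.78 and was still called.

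**Figure D2:**
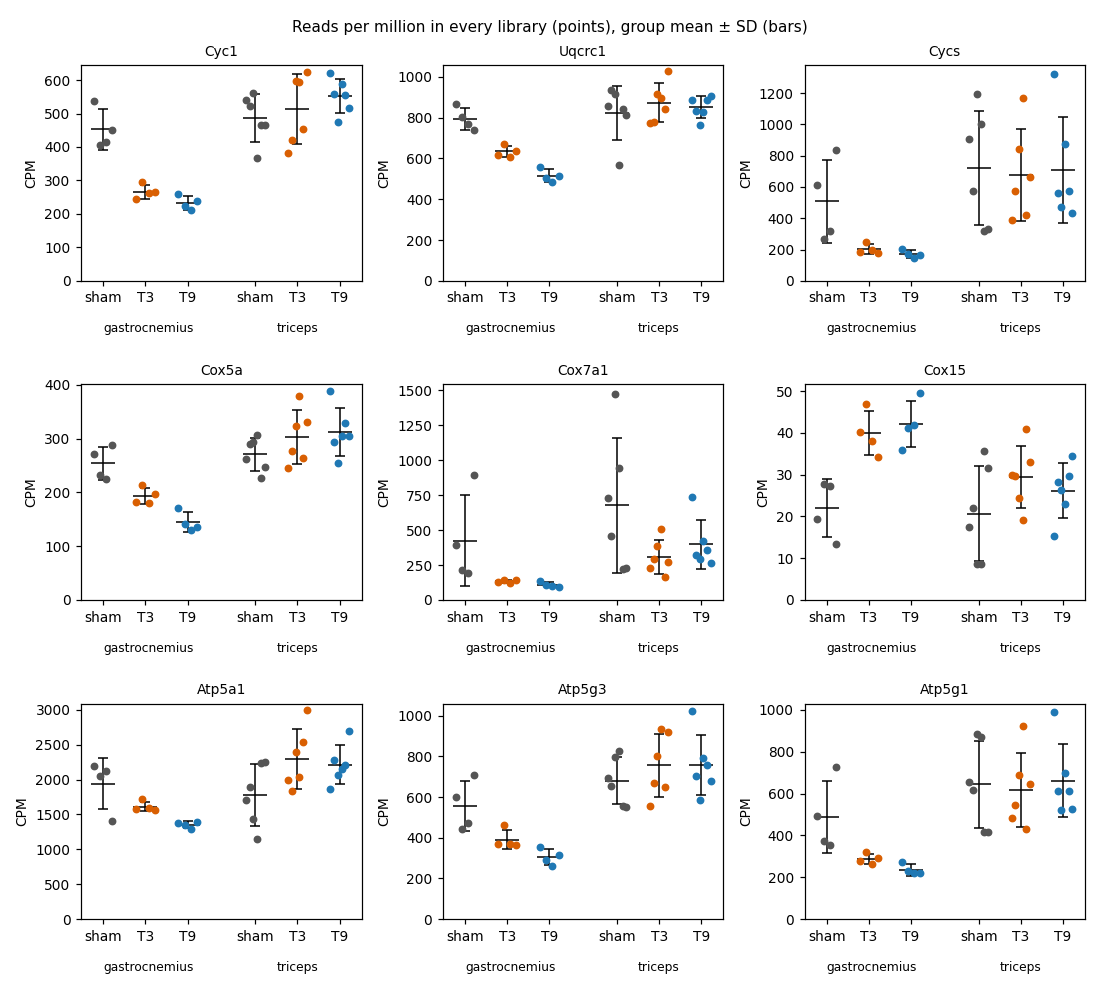
CPM (vertical axis) of 9 members in every library (points) of the 6 muscle by surgery groups (horizontal axis), with group mean ± SD (bars). In the gastrocnemius the injured libraries of Cyc1, Uqcrc1, Cycs, Cox5a, Cox7a1 and Atp5g1 lie below all sham libraries and those of Cox15 above them, and the 2 high sham points of Cycs and Cox7a1 are replicates 1 and 4.

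In complex IV subunits were called lower, and with all 12 libraries no assembly factor was. The difference between these sets was not tested. Some factors had lower means after T9 without a call, and others were called higher, as given below. Cox14, an assembly factor, was at 145, 96, 89 and 263 CPM in sham and 109, 82, 80.9 and 86.5 after T9. Of the 13 subunits, 4 were called lower after T3 and 10 after T9, with medians of -0.69 and -0.87. Cox6a2, Cox8a and Cox8b were the 3 not called after T9. Cox5a, a subunit common to all tissues on chromosome 9 (57521274 to 57532426), had the smallest adjusted p of the set after T9. It was at 271, 233, 225 and 288 CPM in sham, 182, 213, 180 and 196 after T3 and 171, 142, 130 and 137 after T9. The 3 groups formed separate ranges, with sham highest and T9 lowest. The differences were -0.39 ± 0.13 after T3 (limma adjusted p = 0.036) and -0.81 ± 0.13 after T9 (adjusted p = 0.00072). The call after T3 was made in 11 of 24 fits, and the difference was 0.042 once trends on length and GC content were taken out of the libraries. It was -0.25 and not called (adjusted p = 0.14) without sham replicates 1 and 4, while that after T9 was -0.67.

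Cox7a1, the heart and muscle form of subunit VIIa on chromosome 7 (30184144 to 30186078), had the most negative difference of all 49 members in both comparisons. Its sham values were 396, 217, 190 and 893 CPM, against 126, 141, 123 and 145 after T3 and 133, 106, 100 and 93.2 after T9. No injured library reached the lowest sham library, and the sham libraries differed several-fold among themselves. The differences were -1.38 ± 0.36 (limma adjusted p = 0.011) and -1.70 ± 0.36 (adjusted p = 0.0032), and without sham replicates 1 and 4 they were -0.60 and -0.92. Cox5b, a zinc-binding subunit, fell after T9 from 444 ± 191 to 229 ± 22.6 CPM, a difference of -0.87 ± 0.23 (adjusted p = 0.0093) that was -0.42 without sham replicates 1 and 4. Cox4i1, the main form of subunit IV, was at 1304 ± 694 CPM in sham and 633 ± 93.6 after T9 (-0.92 ± 0.27, adjusted p = 0.015), and its difference without sham replicates 1 and 4 was -0.37. Cox6a2, the muscle form of subunit VIa, showed values of 579 ± 118, 536 ± 52.1 and 488 ± 52.8 CPM in sham, T3 and T9 and a difference of -0.23 ± 0.16 after T9 (adjusted p = 0.25) that was 0.014 without sham replicates 1 and 4.

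The assembly factors of complex IV contained the members called higher in the gastrocnemius. Of 9 factors, 2 were called higher after T3 (Cox15 and Cox18) and 3 after T9 (these and Cox19), and the rest were not called in either direction. Cox15, which makes haem A for the catalytic subunit and lies on chromosome 19 (43733254 to 43753000), was at 19.3, 27.8, 27.3 and 13.4 CPM in sham, 40.2, 46.8, 38.2 and 34.3 after T3 and 36, 41.1, 42 and 49.6 after T9. Every injured library was above every sham library. The differences were 0.91 ± 0.21 after T3 (limma adjusted p = 0.006) and 0.99 ± 0.21 after T9 (adjusted p = 0.0035), or 1.88 and 1.99 times the sham level, and without sham replicates 1 and 4 they were 0.52 and 0.60. Cox18, which inserts a part of the catalytic core into the membrane, rose from 5.49 ± 1.69 CPM to 8.87 ± 1.36 after T3 (0.74 ± 0.22, adjusted p = 0.02) and 8.56 ± 0.133 after T9. It was not called without sham replicates 1 and 4 or with centred libraries. Cox19, a copper chaperone, went from 36.5 ± 7.64 to 52.1 ± 2.74 CPM after T9 (0.53 ± 0.15, adjusted p = 0.014), a call that centring also removed. It was called higher after both injuries without sham replicates 1 and 4 (0.59 and 0.74). With centred libraries Cox15 was the 1 member called higher in either comparison, and 3 assembly factors were called lower after T9.

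Complex V was lower in 8 of 17 members after T3 and 14 of 17 after T9, with medians of -0.67 and -0.83. The F1 median was -0.50 after T9, with 4 of 5 called lower, and that of Fo and stalk was -0.85, with 10 of 11 called lower. The difference between these medians was not tested, and Atp5s was not called. Atp5a1, the alpha subunit, was at 2197, 2050, 2119 and 1403 CPM in sham, 1573, 1715, 1592 and 1568 after T3 and 1378, 1355, 1290 and 1397 after T9. Here sham replicate 4 was the lowest sham library, and T9 libraries lay below it by a small margin. The difference after T9 was -0.50 ± 0.15 (limma adjusted p = 0.017), and without sham replicates 1 and 4 it was -0.62. Atp5b, the catalytic beta subunit, was at 2657 ± 394 CPM in sham, 2613 ± 166 after T3 and 2309 ± 96.7 after T9 (SD, n = 4), and was not called (-0.19 ± 0.14 after T9, adjusted p = 0.28, and -0.28 without sham replicates 1 and 4).

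Among the Fo and stalk members, Atp5g3 and Atp5g1, both genes for the c subunit of the proton ring, had the smallest adjusted p after T9. Atp5g3, on chromosome 2 (73908447 to 73911326), was at 599, 441, 475 and 710 CPM in sham, 370, 462, 369 and 363 after T3 and 354, 290, 261 and 314 after T9. The T9 libraries lay below all others, while T3 replicate 2 fell within the sham range. The differences were -0.49 ± 0.17 after T3 (limma adjusted p = 0.036) and -0.85 ± 0.17 after T9 (adjusted p = 0.002). They were -0.23, which was not called (adjusted p = 0.21), and -0.60 without sham replicates 1 and 4, and the call after T3 was made in 11 of 24 fits. Atp5g1, on chromosome 11 (96068852 to 96075670), went from 487 ± 172 CPM to 289 ± 23.7 and 235 ± 27.2, with differences of -0.70 ± 0.20 (adjusted p = 0.016) and -0.995 ± 0.20 (adjusted p = 0.0022), or -0.34 and -0.635 without sham replicates 1 and 4. Atp5g2, which encodes the same c subunit, was at 158 ± 16.2, 166 ± 12.2 and 164 ± 14.9 CPM and was not called (0.05 ± 0.12 after T9, adjusted p = 0.77, and 0.17 without sham replicates 1 and 4).

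The stalk members that join head and membrane also fell. Atp5o, the protein at the top of the peripheral stalk, was at 174, 127, 130 and 269 CPM in sham, 86, 106, 95.7 and 98.5 after T3 and 111, 93.3, 83.9 and 89 after T9. No injured library reached the sham range. Its differences were -0.79 ± 0.21 (limma adjusted p = 0.011) and -0.83 ± 0.21 (adjusted p = 0.0075), and without sham replicates 1 and 4 they were -0.41 and -0.45. Atp5f1, the b subunit of the stalk, was lower by -0.48 ± 0.17 after T3 (adjusted p = 0.049) and -0.70 ± 0.17 after T9 (adjusted p = 0.0074). Its call after T3 was made in 9 of 24 fits and was lost without sham replicates 1 and 4 (-0.15, adjusted p = 0.37), where the difference after T9 was -0.38. Atp5j, coupling factor 6, was lower by -0.80 ± 0.22 (adjusted p = 0.013) and -0.85 ± 0.22 (adjusted p = 0.0084), or -0.34, which was not called (adjusted p = 0.053), and -0.39 without sham replicates 1 and 4. Atp5k, subunit e, which helps ATP synthases pair up, was at 271, 156, 148 and 540 CPM in sham, 109, 118, 112 and 110 after T3 and 125, 102, 90.1 and 93.7 after T9. Sham and injured libraries did not overlap, and the differences were -1.10 ± 0.31 and -1.24 ± 0.31 (adjusted p = 0.016 and 0.0078). They were -0.44 and -0.575 without sham replicates 1 and 4. The inhibitor of the synthase, Atpif1, is no member by the rule. It was at 10.6, 5.62, 5.8 and 15.1 CPM in sham, 4.65 to 5.51 after T3 and 5.34 to 6.43 after T9, and was not called.

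As a class, members with short transcripts had a larger SE of the fit than longer ones. This SE comes from all 12 gastrocnemius libraries and does not measure the spread of the sham libraries alone. Single members went against the class. In sham, Cycs (3123 bases) ran from 267 to 837 CPM and Cox8a (550 bases) from 19.8 to 23.3 CPM. The 27 members with a transcript under 1000 bases had a median SE of 0.27 and a median difference of -0.87 after T9, with 22 called lower and 0 higher. The 22 longer members had a median SE of 0.18 and a median difference of -0.49, with 12 lower and 3 higher. Over all genes tested, the medians in the same length classes were -0.09 and 0.44. The shares of all genes called in these classes are not given here. No excess of called members over genes of similar length can therefore be read from the counts. The high sham libraries 1 and 4 held the high values of the short members, such as Atp5e, the F1 epsilon subunit, with 757, 356, 383 and 1964 CPM in sham. Without these libraries Atp5e was not called (-0.24 after T3 and -0.23 after T9). Removing each library's trend on length and GC content gave 24 lower and 4 higher after T3, beside 8.41% lower and 34.5% higher of all genes, and 32 lower and 5 higher after T9, beside 6.43% and 46.3%. It also made the members' median difference smaller, -0.27 in place of -0.61 after T3 and -0.44 in place of -0.80 after T9. The part of RNA fragment size or quality in this pattern was not tested.

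**Figure D3:**
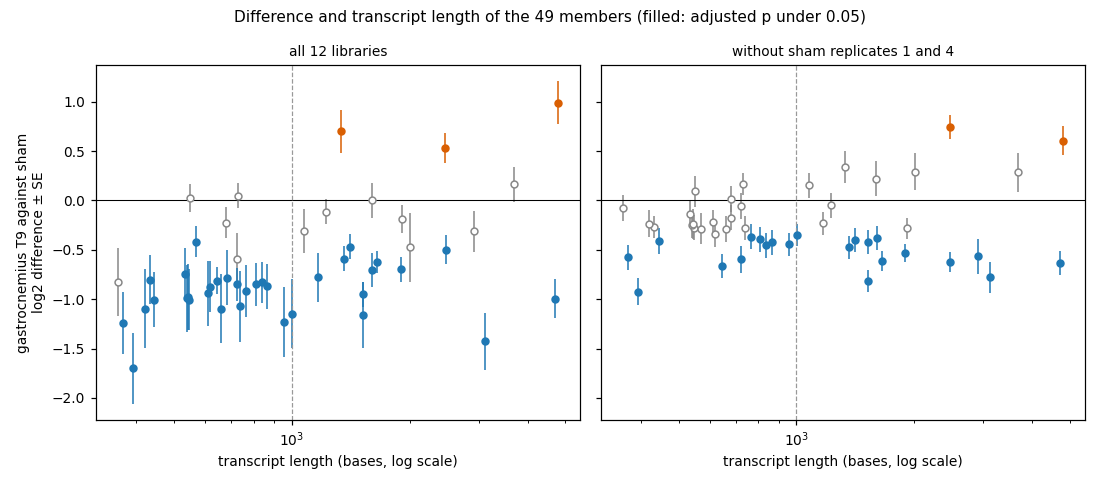
Log2 difference of T9 against sham with its SE (vertical axis) against transcript length in bases on a log scale (horizontal axis) for the 49 members in the gastrocnemius, with all 12 libraries (left) and without sham replicates 1 and 4 (right). Filled points are called; the dashed line marks 1000 bases, and the calls go from 34 lower and 3 higher on the left to 22 lower and 2 higher on the right.

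The comparison of T3 with T9 in the gastrocnemius asked whether the level of the lesion mattered below both lesions. By limma, 0 members were called in either direction, beside 0.729% higher and 0.898% lower of all genes tested. With voom weights the count was also 0. At an unadjusted p under 0.05, 4 members were higher after T3 than after T9 and 0 lower. The share of all genes at that looser threshold is not given here, so no excess of members can be read from it. The median member difference was 0.17, against -0.11 over all genes. Cox5a had the smallest adjusted p (0.42 ± 0.13, limma adjusted p = 0.14), followed by Uqcrc1 (0.30 ± 0.11, adjusted p = 0.21), Uqcrfs1 (0.28 ± 0.13, adjusted p = 0.30) and Atp5g3 (0.36 ± 0.17, adjusted p = 0.32). The T3 libraries of 9 members lay wholly above the T9 libraries, as they did for 5.89% of all genes, and this was so for Cox5a, with 180 to 213 CPM after T3 and 130 to 171 after T9. In a fit of these 2 groups alone, 2 of 49 members were called higher after T3, beside 419 of 11235 genes tested, which is a similar share. The comparisons of T3 and of T9 with sham share their sham libraries.

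The triceps allowed the question of whether a forelimb muscle showed the same members lower. After T9 it did not show calls: by limma, 0 members were called, beside 0.00889% higher and 0% lower of all genes, and with voom weights the count was 0. At an unadjusted p under 0.05, 6 members were higher and 0 lower, but the share of all genes at that looser threshold is not given here. The median member difference was -0.04, against 0.17 over all genes. Cyc1 ran from 366 to 560 CPM in sham with a median of 495, from 383 to 624 after T3 with a median of 523, and from 476 to 620 after T9 with a median of 557. These ranges overlapped, with a difference of 0.19 ± 0.15 after T9 (limma adjusted p = 0.58). Cycs ran from 318 to 1193 CPM in sham, 388 to 1168 after T3 and 431 to 1320 after T9, with medians of 743, 619 and 569. The difference after T9 was 0.04 ± 0.30 (adjusted p = 0.955). The smallest adjusted p values were those of Cox18 (0.48 ± 0.17, adjusted p = 0.349), Cox6a2 (0.32 ± 0.13, adjusted p = 0.4088), Atp5d (0.28 ± 0.11, adjusted p = 0.4088) and Atp5a1 (0.34 ± 0.13, adjusted p = 0.4094).

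After T3 the triceps had 7 members called higher and 1 lower, beside 19% higher and 4.32% lower of all genes tested, so the share of higher members was below that of all genes. The median member difference was -0.11, against 0.23. The higher members were the complex IV subunit Cox8a, the assembly factors Cox10, Cox11, Cox18 and Cox19, and Atp5a1 and Atp5s, and the lower one was Atp5e. The count of 8 went to 13 without sham replicate 2, to 5 without sham replicate 3, T3 replicate 3 or T3 replicate 5, and to 4 without T3 replicate 2. With centred libraries 2 were higher and 0 lower, beside 10.1% and 7.95% of all genes, and with quantile normalization 2 higher and 4 lower, beside 9.86% and 7.79%. With the length and GC trend removed 16 were higher and 6 lower, beside 27% and 5.96%, so under this setting the share of higher members was not below that of all genes. Cox8a, the form of subunit VIII found in most tissues, ran from 17 to 30.1 CPM in sham with a median of 22.3, from 28.3 to 54.2 after T3 with a median of 43.4, and from 24.1 to 33.9 after T9 with a median of 30.3. Only the lowest T3 library lay within the sham range. The difference after T3 was 0.93 ± 0.17 (limma adjusted p = 0.00085), or 1.90 times sham. Cox18 ran from 3.3 to 7.18 CPM in sham with a median of 4.96 and from 6.28 to 11.4 after T3 with a median of 7.98, a difference of 0.74 ± 0.17 (adjusted p = 0.004). Cox8a and Cox18 were called in each of 31 fits of this comparison. Cox19 rose by 0.46 ± 0.13 (adjusted p = 0.016) and Atp5s by 0.48 ± 0.14 (adjusted p = 0.018), with overlapping ranges. Markers of other cells moved in the same comparison. Of 9 macrophage markers 1 was higher (Cd68, 3.78 ± 0.69, limma adjusted p = 0.00095), of 8 fibroblast markers 1 was higher (Gsn) and 3 lower (Col1a1, Col3a1 and Lum), of 7 endothelial markers 1 was lower (Egfl7), and of 9 muscle fibre markers 2 were lower (Ckm and Mylpf). The macrophage markers summed to 20.9 to 1007 CPM in triceps sham and 34.1 to 77.9 after T3. Their part in the members' differences was not tested.

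Atp5e ran from 426 to 3092 CPM in triceps sham with a median of 1065 and from 314 to 892 after T3 with a median of 536. Triceps sham replicates 3 and 4 held its 2 highest values, 3092 and 2534 CPM, and the groups overlapped. The difference was -1.03 ± 0.36 (limma adjusted p = 0.045) and was called in 16 of 31 fits. Between T3 and T9 in the triceps 0 members were called by limma, beside 4.95% higher and 2.65% lower of all genes, and 0 with voom weights. At an unadjusted p under 0.05, for which no share of all genes is given here, 3 were higher after T3 and 0 lower. Cox8a came nearest to a call (0.55 ± 0.17, adjusted p = 0.05036), followed by Atp5s (0.44 ± 0.14, adjusted p = 0.061), Cox19 (0.33 ± 0.13, adjusted p = 0.14) and Cox18 (0.27 ± 0.17, adjusted p = 0.399). Without T3 replicate 1 the count was 2, and without sham replicate 3 or 4 it was 1.

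Within mice, the gastrocnemius was compared with the triceps of the same animal. In sham mice 31 members were lower and 3 higher in the gastrocnemius, beside 12% lower and 26.8% higher of all genes. The smallest adjusted p values were those of Atp5mpl (-1.21 ± 0.28), Cox19 (-0.53 ± 0.12), Atp5e (-1.33 ± 0.33) and Atp5l (-1.10 ± 0.27), at 0.01685 for the first pair and 0.0174 for the second by limma. The higher members were Cox10 (0.64 ± 0.19, adjusted p = 0.023), Cox15 (0.70 ± 0.21, adjusted p = 0.026) and Atp5a1 (0.33 ± 0.12, adjusted p = 0.043). The count of 34 rested on single mice and on the block: it was 22 without the sham mouse of triceps replicate 2, 0 without the sham mouse of triceps replicate 3, the 1 mouse of 12 whose 2 libraries did not deviate from their groups together (r = -0.753), and 0 without the mouse term. Without the mouse term the share of all genes called in either direction also fell, from 38.9% to 0.845%, so this loss was not particular to the members. After T3, 40 members were lower and 1 higher, beside 9.95% and 20.5% of all genes, and 8 were called without the T3 mouse of triceps replicate 4 and 12 without that of replicate 3. After T9, 40 were lower and 1 higher, beside 11.1% and 41.9%, and leaving out any 1 mouse gave 38 to 43 calls. Cox15 was the higher member after both injuries (0.64 ± 0.21 after T3 and 0.89 ± 0.21 after T9, limma adjusted p = 0.038 and 0.0048). Cycs had the most negative difference after both, -1.76 ± 0.29 after T3 (adjusted p = 0.0018) and -2.14 ± 0.29 after T9 (adjusted p = 0.00019). The smallest adjusted p values after T3, beside that of Cycs, were those of Cyc1 (-0.88 ± 0.15), Atp5g3 (-0.90 ± 0.15) and Atp5g1 (-1.15 ± 0.19). After T9 they were those of Atp5g3 (-1.32 ± 0.15), Cyc1 (-1.26 ± 0.15), Cox5a (-1.09 ± 0.13) and Uqcrfs1 (-1.01 ± 0.13).

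The difference between muscles in the effect of injury was tested as an interaction. For T9, 8 members had a more negative effect in the gastrocnemius than in the triceps and 0 a less negative one, beside 3.19% and 3.76% of all genes. They were Cyc1, Uqcrc1, Uqcrc2 and Uqcrfs1 of complex III, Cox5a of complex IV, and Atp5a1, Atp5d and Atp5g3 of complex V. For Cyc1 the gastrocnemius minus triceps difference in a mouse was -0.0025, -0.37, -0.44 and 0.30 in the 4 sham mice and -1.26, -1.33, -1.17 and -1.30 in the 4 T9 mice. All T9 mice were thus below all sham mice, and the interaction was -1.14 ± 0.21 (limma adjusted p = 0.0061). For Atp5a1 the values were 0.37, 0.11, 0.56 and 0.29 in sham mice and -0.43, -0.75, -0.68 and -0.62 in T9 mice, so all 4 sham mice were above 0 and all 4 T9 mice below it, with an interaction of -0.96 ± 0.17 (adjusted p = 0.0054). Cox5a gave -0.90 ± 0.18 (adjusted p = 0.01) and Uqcrfs1 -0.82 ± 0.18 (adjusted p = 0.015). The count was 4, 4 and 18 without the sham mouse of triceps replicate 1, 4 or 3, and 5, 4 and 3 without the T9 mouse of triceps replicate 2, 3 or 4. For T3, 0 members were called by limma, beside 1.1% more negative and 0.142% less negative of all genes, and 0 with voom weights. At an unadjusted p under 0.05, for which no share of all genes is given here, 12 were more negative. Atp5a1 came nearest (-0.69 ± 0.17, adjusted p = 0.071), followed by Cyc1 (-0.75 ± 0.21, adjusted p = 0.1005), Cox10 (-0.83 ± 0.26, adjusted p = 0.17) and Atp5d (-0.53 ± 0.19, adjusted p = 0.23).

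**Figure D4:**
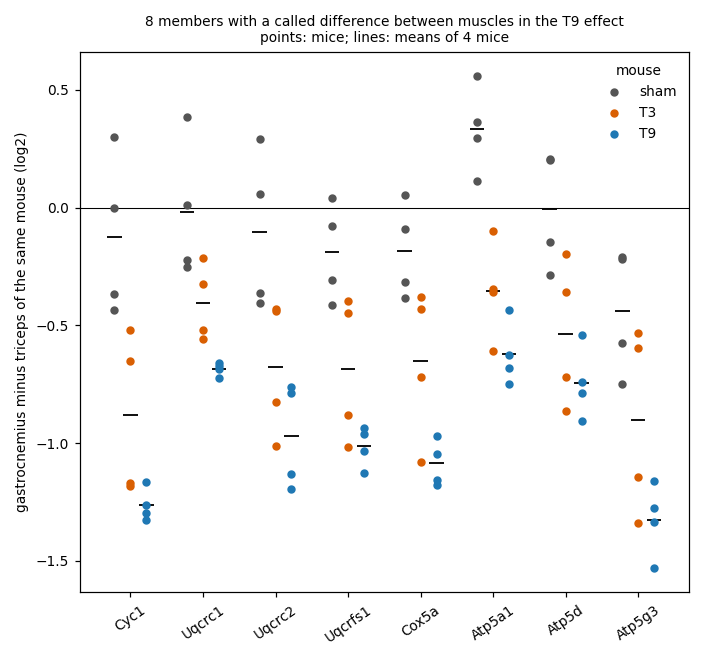
Gastrocnemius minus triceps log2 difference within each mouse (vertical axis, points are mice, lines are means of 4 mice) for the 8 members called in the T9 interaction (horizontal axis), coloured by surgery. The T9 mice of Cyc1 sit between -1.33 and -1.17 and the sham mice between -0.44 and 0.30.

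Some subunits have a pair of forms, and their ratio was taken within each library after dividing reads by transcript length. The scaling of a library does not enter such a ratio, but a spread that goes with transcript length can. The transcripts used were 393 and 659 bases for Cox7a1 and Cox7a2, and 360 and 550 bases for Cox8b and Cox8a. They were 680 and 571 bases for Cox6a2 and Cox6a1, and 4715, 731 and 723 bases for Atp5g1, Atp5g2 and Atp5g3. The level of the Atp5g1 to Atp5g3 ratio therefore depends strongly on the transcript chosen for Atp5g1. The part of length in the ratios was not tested. In the gastrocnemius, the ratio of Cox7a1 to Cox7a2 was 2.95 ± 0.375 in sham, 2.04 ± 0.235 after T3 and 1.93 ± 0.133 after T9 (SD, n = 4). The sham range of 2.54 to 3.29 lay above the T3 range of 1.83 to 2.38 and the T9 range of 1.78 to 2.07. Each exact permutation test gave p = 0.02857, the smallest that 4 against 4 allow, and adjusted p = 0.078 over 30 tests. In the triceps the ratio was 3.21 ± 0.554, 2.16 ± 0.222 and 2.53 ± 0.185 (SD, n = 6), with exact permutation p = 0.0022 and adjusted p = 0.016 for both injuries, and again no overlap with sham. The ratio of Cox8b, the muscle form of subunit VIII, to Cox8a fell in the triceps from 63.8 ± 49.9 to 19.3 ± 5.03 after T3 (exact permutation, adjusted p = 0.016) and was 31.9 ± 6.63 after T9 (adjusted p = 0.23). After T3 it was also lower than after T9 (exact permutation, adjusted p = 0.016). The log2 of this ratio was 7.30, 6.12 and 6.11 in triceps sham replicates 3, 1 and 4, whose reads held the largest member share in that group. It was 5.20, 4.66 and 4.66 in sham replicates 2, 5 and 6, and 3.36 to 4.61 after T3. The size of the fall from sham in the triceps thus rested largely on sham replicates 1, 3 and 4. In the gastrocnemius the ratio was 46.5 ± 31.3 in sham (SD, n = 4). It was 18.9 ± 2.9 after T3 and 22.3 ± 3.11 after T9. The T3 range of 15.5 to 22.6 lay just below the sham range of 23.2 to 91.1. Exact permutation gave p = 0.02857 (adjusted p = 0.078) after T3 and adjusted p = 0.18 after T9. The log2 ratio was 5.51 and 6.51 in sham replicates 1 and 4 and 4.73 and 4.53 in sham replicates 2 and 3.

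The ratio of Atp5g2 to Atp5g3 was 0.287 ± 0.0367 in gastrocnemius sham, 0.422 ± 0.0242 after T3 and 0.533 ± 0.0258 after T9 (SD, n = 4). The 3 ranges did not overlap, and each exact permutation p was 0.02857 with an adjusted p of 0.078. In the triceps the same ratio was 0.235 ± 0.034, 0.258 ± 0.0383 and 0.251 ± 0.0443 (SD, n = 6), with overlapping ranges. The ratio of Cox6a2 to Cox6a1 was 26.1 ± 3.37, 30.8 ± 4.19 and 29.7 ± 2.13 in the gastrocnemius and did not pass the test in any of its 6 comparisons, and the same was true of Atp5g1 to Atp5g3.

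**Figure D5:**
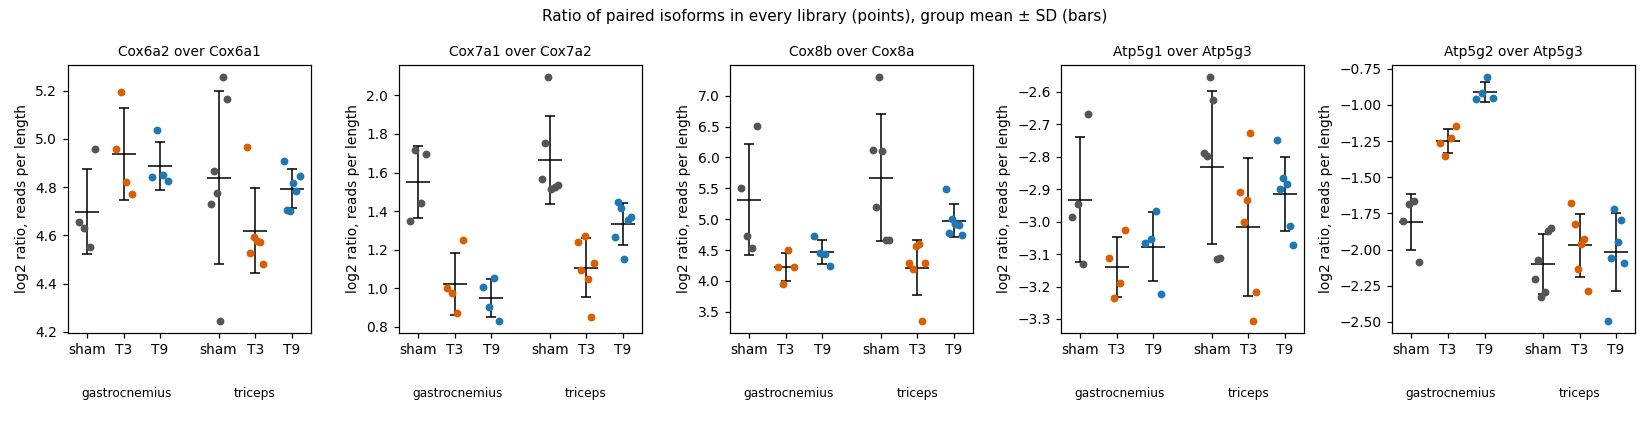
Log2 ratio of paired forms per transcript length (vertical axis) in every library (points) of the 6 groups (horizontal axis), with group mean ± SD (bars), for 5 pairs. The injured libraries lie below all sham libraries of the same muscle for Cox7a1 to Cox7a2, and the Atp5g2 to Atp5g3 ratio forms 3 separate ranges in the gastrocnemius.

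Per kilobase of transcript, the members with the highest means in gastrocnemius sham were Atp5e (2055 ± 1794 CPM per kb, SD, n = 4), Cox8b (1906 ± 1377) and Cox4i1 (1705 ± 907), while by the median of the 4 libraries Atp5b was first (1465 CPM per kb), ahead of Cox8b (1415), Cox4i1 (1390) and Atp5e (1355). The order of the means rested on the high values of sham replicate 4, and these members did not differ beyond their spread. The lowest mean per kilobase was that of the copper chaperone Cox17 (0.842 ± 0.109), at 3.68, 2.91, 2.76 and 3.09 CPM in the sham libraries. The transcript used for Cox17 was long, 3690 bases. Its span overlaps another coding gene on the same strand, so its count may hold or lack reads of that gene.

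Partners of these complexes outside the rule were followed as lists in the gastrocnemius. Of all genes, 6.65% were lower and 27.1% higher after T3, and 5.67% lower and 37.6% higher after T9. Of the 6 mitochondrially encoded subunits of complexes III, IV and V, 4 were lower after T3 and 2 after T9, mt-Co1 (-0.41 ± 0.15, limma adjusted p = 0.038) and mt-Co2 (-0.50 ± 0.17, adjusted p = 0.031), with 0 higher. Of 10 core subunits of complex I, 4 were lower after T3 and 7 after T9, and of 8 complex II genes 4 were lower after each. Sdhb, the iron-sulphur subunit of complex II, was lower by -1.25 ± 0.26 after T9 (adjusted p = 0.0032). Of 30 further assembly factors of complexes III, IV and V, 2 were higher and 5 lower after T3 and 2 higher and 4 lower after T9, with Uqcc1, an assembly factor of complex III, higher by 0.74 ± 0.17 (adjusted p = 0.0042). The share of higher factors was below that of all genes after both injuries. Of 10 genes of ATP and phosphate export, Ckmt2, the mitochondrial creatine kinase of muscle, was lower by -1.64 ± 0.20 after T9 (adjusted p = 0.0001) and Slc25a4, the ADP/ATP carrier of muscle, by -0.99 ± 0.15 (adjusted p = 0.00043), and Slc25a25 was higher (2.31 ± 0.31, adjusted p = 0.0002). With sham replicates 1 and 4 left out, the lower calls after T9 were 0 of the 6 mitochondrially encoded genes, 8 of the 10 of complex I and 4 of the 8 of complex II, and after T3 they were 2, 2 and 1. Of all genes, 6.35% were then lower after T9 and 7.9% after T3. The differences after T9 were then -0.67 for Sdhb, 0.74 for Uqcc1, -1.81 for Ckmt2, -0.78 for Slc25a4 and 2.57 for Slc25a25, all called.

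Genes that regulate mitochondrial genes were called in both directions, and centring the libraries turned the list's median after T9 from 0.20 to -0.20. Of 20 listed regulators, 6 were higher and 3 lower in the gastrocnemius after T3, beside 27.1% and 6.65% of all genes, and 5 higher and 6 lower after T9, beside 37.6% and 5.67%. The share of higher regulators was thus near that of all genes after T3 and below it after T9. With sham replicates 1 and 4 left out, 4 were higher and 4 lower after T3, beside 22.4% and 7.9% of all genes. After T9, 4 were then higher and 6 lower, beside 30.1% and 6.35%. Perm1, a muscle partner of the PGC-1 and ERR regulators, went from 223 ± 78.1 CPM in sham to 86.9 ± 58.4 after T3 and 17.5 ± 6.48 after T9 (SD, n = 4), a difference of -3.67 ± 0.41 after T9 (limma adjusted p = 5.1e-05). Esrra, which encodes ERR alpha, went from 163 ± 17.1 to 71.7 ± 5 CPM after T9 (-1.18 ± 0.18, adjusted p = 0.00042), and Rxrg, a retinoid receptor, was lower by -1.07 ± 0.14 (adjusted p = 0.00015). Nrf1, whose motif is shown above for Cycs, was higher by 0.65 ± 0.15 after T9 (adjusted p = 0.0043), and so was Ppard (1.21 ± 0.24, adjusted p = 0.0022). The 5 differences named here for T9 were -4.00 for Perm1, -1.16 for Esrra, -0.93 for Rxrg, 0.51 for Nrf1 and 0.71 for Ppard without sham replicates 1 and 4. In the triceps 10 regulators were higher and 1 lower after T3, beside 19% and 4.32% of all genes, and 0 were called after T9. Ppargc1a, which encodes the coactivator PGC-1 alpha, was at 41 ± 24 CPM in triceps sham, 185 ± 70.5 after T3 and 116 ± 30 after T9 (SD, n = 6). In the gastrocnemius it was at 40.6 ± 18.9, 25.3 ± 8.54 and 15.7 ± 1.25 CPM (SD, n = 4). In the T9 interaction 7 of the 20 were more negative in the gastrocnemius, beside 3.19% of all genes, with Perm1 at -4.60 ± 0.39 (adjusted p = 5.5e-05).

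Markers of muscle fibres and of other cells were measured beside the members. The 9 listed muscle fibre markers summed to 108354 to 148184 CPM in gastrocnemius sham, 115816 to 133736 after T3 and 113293 to 127298 after T9. Of these 9, 2 were higher and 4 lower after T3, beside 27.1% and 6.65% of all genes. After T9, 1 was higher and 4 lower, beside 37.6% and 5.67%. The 9 macrophage markers in the file, of 14 listed, summed to 21.2 to 65.6 CPM in sham, 45.2 to 53.9 after T3 and 40 to 60 after T9. Of them, 3 were called higher after T9, beside 37.6% of all genes, and 2 without sham replicates 1 and 4, beside 30.1%. Both shares of 9 were thus near or below those of all genes. Fibroblast markers, 8 of 8, summed to 548 to 802, 813 to 1060 and 754 to 1006 CPM. Triceps sham replicate 4 held 1007 CPM of macrophage markers against a group median of 37, and it was 1 of the 2 triceps sham libraries with high Atp5e. The part of these cells in the members' differences was not tested.

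Reads of some members cannot be assigned with certainty. The 4 pseudogenes left out are copies of Cox6c, Atp5k and Atp5l, and they reached at most 79.6 CPM in a library. The annotated span of Cox4i1, Cox16, Cox17 and Atp5o overlaps another coding gene on the same strand, so their counts may hold or lack reads of that gene.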

How the data were processed

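RNA from gastrocnemius (12 libraries) and triceps (18 libraries) was sequenced after selection of polyadenylated RNA with a stranded kit, per the labels' protocols. The submitters' processing notes name HISAT2 2.1.0, featureCounts and Subread 1.5.1, limma and the build GRCm38. The authors deposited log2 values of 11249 genes, a log2 CPM scale on which 0.5 reads are added to each gene: whole reads were recovered for 100% of values (tolerance 0.01 reads), and their totals are the depths given. The offset shrinks differences of low genes. A test on counts was foreseen only for a count table, so limma 3.58.1 (R 4.3.3) was run on the deposited log2 values (variance trend, two-sided, Benjamini-Hochberg adjustment over all genes tested, threshold 0.05). A gene was tested where 4 or more libraries had a log2 value of 0 or higher. Symbols, transcript lengths and positions came from GENCODE M21 (GRCm38), which matched 11240 identifiers.

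The gastrocnemius fit held all 12 libraries, and the triceps fit all 18 with a term for the number 57 or 60 in the library descriptions, whose meaning the sources used here do not give (2 of 6 libraries per group carry 57). Muscles were compared in 24 libraries with a term for each of 12 mice. The mice come from the numbers in the descriptions, and the 2 libraries of a mouse deviated from their group means together (r over 0.1) in 11 of 12. The highest r of a mouse was 0.7283, while libraries of different mice with the same replicate number reached 0.8367. Such an r therefore cannot show that 2 libraries share a mouse, and the pairing rests on the descriptions alone. Isoform ratios were compared with exact two-sided permutation tests. Alternatives were other scalings, filters, a pseudocount of 1 CPM, voom weights, other terms and leaving out each library or mouse. Removing the trend on length and GC content and leaving out gastrocnemius sham replicates 1 and 4 were added after seeing the data. The fits were tested on simulated data.

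Members named with their differences were the 4 with the smallest adjusted p in each complex after T3 and after T9 in the gastrocnemius, the 4 smallest in every other comparison, Cyc1, Cycs, the paired forms and any member called against its set. From each further list up to 3 genes with the smallest adjusted p after T9 were eligible. The members and lists were chosen with earlier results of these data known.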

Additional observations from a re-analysis of the deposited data

Results flagged for a closer look

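Single libraries far from the rest of their group were found in 19 of 246 groups of values tested with Dixon's criterion. Chance gives about 1 in 20 where the groups of values are independent. Members were measured in the same libraries, so 19 of 246 cannot be set against that share. Gastrocnemius T3 replicate 2 was high for Cox6a2 (613.8 CPM), Atp5g3 (462.1 CPM), Uqcrh (221.2 CPM), Atp5s (27.32 CPM), Atp5d (304.6 CPM), Atp5a1 (1715 CPM) and Cox10 (56.81 CPM), and T3 replicate 1 was low for Cox8b (313.1 CPM). Gastrocnemius T9 replicate 1 was high for Cox6a2 (567.4 CPM), Cox7a2l (140.7 CPM), Atp5g1 (275.4 CPM) and Uqcr11 (184.7 CPM). In the triceps, sham replicate 4 was low for Uqcrc1 (567.9 CPM, the others 815.1 to 938.3) and T3 replicate 4 high for Atp5g2 (242.2 CPM). Triceps T9 replicate 1 was high for Cox5b (761.5 CPM), Cox7a1 (737.2 CPM), Atp5o (305.5 CPM), Atp5k (525.5 CPM) and Atp5e (1433 CPM).

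The effect of T9 differed between the muscles, by the interaction in limma, for 8 members, each more negative in the gastrocnemius. The log2 differences of effects were -1.138 for Cyc1, -0.6652 for Uqcrc1, -0.8648 for Uqcrc2, -0.824 for Uqcrfs1, -0.9018 for Cox5a, -0.9553 for Atp5a1, -0.7373 for Atp5d and -0.8873 for Atp5g3.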

How the results depend on the processing

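Counts of called members moved by over 1.5 times under some settings, and the cause was not tested. The share of all genes called in either direction under the same setting is given in brackets. In the gastrocnemius, T3 against sham gave 20 calls (33.7%), and 34 with quantile normalization (28.6%), 2 with the library median as a covariate (18.5%) and 31 with voom weights (28.9%). It gave 8 in a fit of only the 2 groups compared (21%) and 13 without sham libraries 1 and 4 (30.3%). T9 against sham gave 37 calls (43.2%), and 4 with the covariate (12.3%). It gave 24 with only the 2 groups (33.9%) and 24 without sham libraries 1 and 4 (36.4%). T3 against T9 gave 0 (1.63%), and 2 with only the 2 groups (9.43%). In the triceps, T3 against sham gave 8 calls (23.3%), and 2 centred (18.1%), 15 with the covariate (25.4%) and 3 with voom weights (17.8%). It gave 5 without the 4 libraries of lowest median (17.6%) and 22 with the length and GC trend removed (32.9%). It gave 4 each with only the 2 groups (17.8%), with no term for the label number (16%) and with only libraries numbered 60 (11.1%). Triceps T3 against T9 gave 0 (7.6%), and 3 each with the covariate (19.7%) and without the lowest-median libraries (11.3%). It gave 1 each with the filter at log2 2 (8.51%), with the pseudocount (7.97%) and with the trend removed (13.8%).

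With the same shares in brackets, there were 34 calls between muscles in sham mice (38.9%). There was 1 with the covariate (2.74%), 0 without the lowest-median libraries (0.08%) and 18 with the trend removed (22.4%). After T9 there were 41 (53%), and 18 with the covariate (17.9%). The T3 interaction gave 0 (1.24%), and 1 with quantile normalization (2.81%), 10 with the covariate (11.5%) and 4 with the trend removed (3.64%). The T9 interaction gave 8 (6.95%), and 5 centred (8.21%), 14 with quantile normalization (10.2%) and 16 with the covariate (28.5%). It gave 5 with voom weights (8.13%), 2 without the lowest-median libraries (2.91%) and 23 with the trend removed (14.6%).

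Leaving out 1 library or mouse gave 10 to 34 and 22 to 39 calls for gastrocnemius T3 and T9 against sham, 0 for T3 against T9, 4 to 13, 0 and 0 to 2 for the same comparisons in the triceps (T3 and T9 against sham, T3 against T9), 0 to 33, 8 to 43 and 38 to 43 between muscles in sham, T3 and T9 mice, and 0 and 3 to 18 for the T3 and T9 interactions. The shares of all genes called in these fits are not given here.

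Of the values of named members under an alternative, 2780 kept their direction and side of the threshold, 499 lost the call and 20 changed sign. With the covariate the log2 differences were 0.092 for Uqcrh and 0.23 for Atp5e in gastrocnemius T3 against sham. In T9 against sham they were 0.27 for Cox4i1, 0.11 for Cox5b, 0.26 for Cox6b1, 0.53 for Cox7a2, 0.32 for Uqcr11, 0.43 for Uqcrh, -0.14 for Cox18, 0.035 for Atp5j, 0.21 for Atp5k, 0.83 for Atp5e, 0.52 for Atp5mpl and 0.49 for Atp5l, and between muscles after T9 0.084 for Cox8b. With the trend removed they were 0.042 for Cox5a in gastrocnemius T3 against sham, 0.10 for Cox5b and 0.29 for Atp5g3 between muscles in sham, and 0.061 for Cox6a2 and 0.18 for Atp5s after T3. Their causes were not tested.

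With the replicate number of the labels as a block, 16 and 36 members were called in gastrocnemius T3 and T9 against sham, 6 in triceps T3 against sham and 1 in triceps T3 against T9. The shares of all genes called were 30%, 39.4%, 21% and 6.12% in the same order. Same-numbered libraries of different surgeries deviated together with r from -0.6271 to 0.8367, so the numbers were not taken as pairs. Without the block for the mouse, 0 members were called between muscles in sham mice, beside 0.845% of all genes. The edgeR test on recovered reads was not run, because the deposited unit is log2.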

Other observations

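Genes of fibre type and of other mitochondrial functions were followed in the gastrocnemius, where 5.67% of all genes were lower and 37.6% higher after T9. After T3 these shares were 6.65% and 27.1%. Of 9 slow-fibre genes, 2 were called lower after T3 and 3 after T9, with Myl2, a slow myosin light chain, at -3.53 ± 0.46 (limma adjusted p = 0.00015), Myl3 at -1.66 ± 0.37 (adjusted p = 0.0045) and Casq2 at -1.01 ± 0.30 (adjusted p = 0.018). Of 11 fast-fibre genes, 4 were lower after T9, among them Myl1 (-1.11 ± 0.22, adjusted p = 0.0021) and Mylpf (-1.16 ± 0.25, adjusted p = 0.0039), and 4 lower and 1 higher after T3. Of 19 protein import genes 4 were higher and 0 lower after T9, a share of higher genes below that of all genes, with Tomm40, the channel of the outer membrane, at 0.53 ± 0.18 (adjusted p = 0.028). Of 11 genes of cristae and membrane organisation 2 were higher and 2 lower, with Chchd3 at -0.83 ± 0.25 (adjusted p = 0.018). Without sham replicates 1 and 4 the counts after T9 were 2 slow-fibre and 4 fast-fibre genes lower, 3 protein import genes higher, and 3 cristae genes higher and 1 lower. Of all genes, 6.35% were then lower and 30.1% higher. In the same fits the median difference of the 9 slow-fibre genes was 0.94 after T3 and 0.45 after T9, with 0 called higher. The slow-fibre genes named as lower thus do not stand for the whole list. Casq2 (-0.86) and Tomm40 (0.40) were then not called, and Myl2 (-2.83), Myl3 (-1.05), Myl1 (-0.78), Mylpf (-0.65) and Chchd3 (-0.28) still were.

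Among cell type markers after T9, the macrophage gene Cd68 was higher by 3.22 ± 0.47 (adjusted p = 0.00031), and of 7 endothelial and 5 Schwann markers 1 each was higher. Of all genes, 37.6% were higher and 5.67% lower. Of 5 adipocyte markers 1 was lower, of 8 fibroblast markers 1 was higher and 1 lower, and of 5 erythroid markers 0 were called. When the same sham libraries were left out, Cd68 was at 3.20, 4 erythroid markers were higher, 0 endothelial markers and 1 Schwann marker were higher, 0 adipocyte markers were lower, and 2 fibroblast markers were higher and 2 lower. Of all genes, 30.1% were then higher and 6.35% lower. Endothelial markers summed to 89.5 to 276 CPM in sham, 218 to 297 after T3 and 240 to 288 after T9.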
